A study of Caenorhabditis elegans with 2 samples.

Results

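The regions described here are 130 ChIP-seq peaks of the homeodomain protein CEH-24 in Caenorhabditis elegans whose summits fell inside exons of protein-coding genes, away from transcript starts. They were selected by rank and position from a list of 30000 peaks that pooled both replicates. A peak had to be among the 3000 with the highest signal, lie more than 250 bp from any tRNA, snoRNA, snRNA or rRNA gene, lie more than 1000 bp from every protein-coding transcript start, and have its summit in a coding sequence (CDS) or untranslated region (UTR). The RNA-gene rule removed 327 of the first 3000 peaks. Of the 2673 that remained, 1348 were at promoters, 620 were intergenic, 575 were intronic and far from starts, and 130, in 127 genes, were exonic.

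The study made 1 group of 2 biological replicates, so it holds no second genotype, treatment or time to compare. Both replicates were whole organisms of strain OP673, genotype unc-119(tm4063) III; wgIs673, a transgenic line that carries CEH-24 fused at its C terminus to GFP and FLAG. They were late embryos, males and females pooled, taken 5 h after synchronization by egg bleaching, and chromatin was sheared by sonication and precipitated with an antibody to GFP. Signal from all cells of the embryo was therefore averaged, and it came from a tagged transgene rather than from untagged CEH-24. The lists hold no read totals, so the sequencing depth behind each replicate is unknown, and 1 control served every list.

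CEH-24 belongs to the NK-2 class of homeodomain transcription factors, proteins that bind short DNA sites and regulate nearby genes. It is known from a pharyngeal muscle, from vulval muscles and from sublateral motor neurons of the head. ChIP-seq reports where a tagged protein, or chromatin close to it, is recovered more often than in a control. Regulatory sites of worms are best known from promoters and introns, while exons also carry the protein code, splice signals and, in the 3′ UTR, signals for RNA cleavage and stability.

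Peaks were ranked within 1 list by the signal value the authors deposited, whose scale differs from list to list. Although the regions were selected for their rank, few of them passed a stricter threshold. Only 2 of the 130 (1.54%), in dos-3 and unc-73, were in the authors' optimal list, beside 0.92% of all pooled peaks. That list passed the irreproducible discovery rate (IDR) procedure. Its 276 peaks all had a signal of 102.2 or more. Membership thus went with the signal that gave the rank, and it is not a separate criterion. Among peaks that met the same rank and RNA-gene rules, the optimal list held 7.86% of promoter, 1.39% of intronic and 1.94% of intergenic peaks. A low share in the optimal list was therefore not particular to the 130. The same 2 had a pooled q-value of 0.05 or less, a cut set here, beside 1.4% of all pooled peaks. That cut was met by 13.8% of those promoter peaks, 3.13% of the intronic and 4.19% of the intergenic peaks. The word strong would thus apply to their rank alone, and they are called exonic peaks below.

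The DNA at 3 of the highest exonic peaks is shown first because it marks where in the coding sequence the pooled summit lay. Replicate summits can lie outside it, as in dos-3, with offsets of 51 bp (replicate 1) and -52 bp (replicate 2). Each stretch is read from the plus strand of the RefSeq genome, build ce11 (WBcel235), with the summit at its middle base and no letter capitalised.
dos-3 (chrIII:835969-835997): gggtgataatagtatttgttagcatgatc
Y53G8AL.1 (chrIII:3239170-3239198): ggaaattccagaaatttctacaccacgag
ani-3 (chrV:19699218-19699246): tgcgaaatttggcccaaaaaatggataaa
The NK-2 class binds sites with the core AAGTG. A longer form of that site, TNAAGTG, was found within 100 bp of 10 of the 130 summits (7.7%), beside 9.1% of all other pooled peaks. The 4 examples below, chosen after the search, carry it without a UTR in the printed stretch, and capitals mark the TNAAGTG match, read on the strand given.
B0464.6 (chrIII:9463330-9463358, plus strand): aaaacatttctTGAAGTGaggaggaacaa
evl-14 (chrIII:4310793-4310821, minus strand): actggagttacTGAAGTGgcaaaaacgaa
Y4C6B.2 (chrIV:5343605-5343633, minus strand): gtttgcattgcTGAAGTGgtagcagccac
nhr-41 (chrIV:1396758-1396786, minus strand): aatacaataatTGAAGTGaaagggcttcg
The matches in evl-14 and Y4C6B.2 lay in coding sequence, centred 38 and 8 bp from the pooled summit. Those in B0464.6 and nhr-41 lay outside coding sequence, 91 and 67 bp from it. In Y4C6B.2 neither replicate shared that summit, with offsets of -344 bp (replicate 1, rank 17576) and 179 bp (replicate 2, rank 19708). The offsets were 67 and -188 bp in B0464.6, -206 and -130 bp in nhr-41, and -2 and -22 bp in evl-14. The evl-14 peak was ranked 3502 in replicate 1 and 16047 in replicate 2.

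The exonic peaks became more frequent down the ranking. Among peaks away from RNA genes, 2 of the 128 down to rank 276, the length of the optimal list, were exonic by the position rule, or 1.56% (Wilson 95% interval 0.43 to 5.52%). The share was 2.58% (16 of 620) from there to rank 1000 and 5.82% of 1925 peaks from rank 1000 to 3000. It was 8.42% (579 of 6876) from rank 3000 to 10000 and 9.56% (1896 of 19827) beyond. Of genome bases away from RNA genes, 14.8% met the same position rule, so the peaks of every rank class were exonic less often than the genome as a whole. These shares describe the ranking that selected the peaks. All intervals given here cover counting error over peaks only, and peaks of 1 experiment are not replicates of it.

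**Figure D1:**
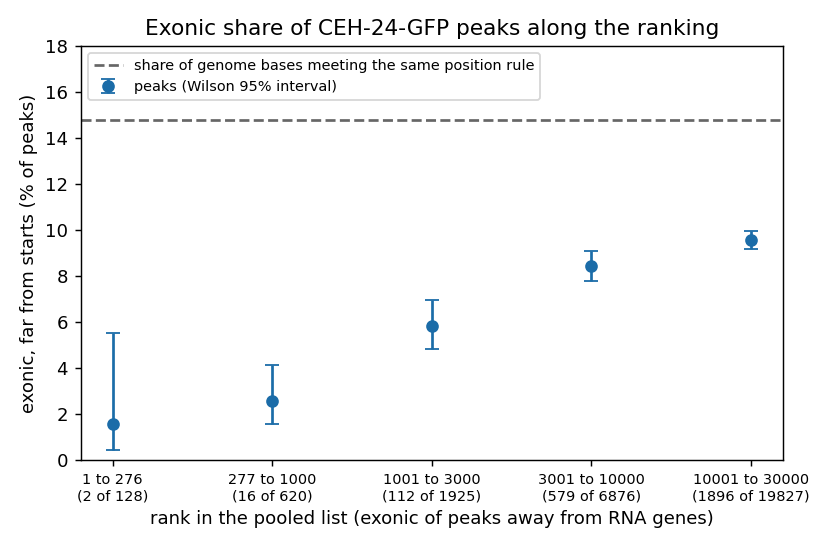
Share of pooled peaks that were exonic and more than 1000 bp from a start (y axis, percent) in 5 classes of rank (x axis), with Wilson 95% intervals; the dashed line is the share of genome bases that met the same rule. The share was 1.56% in the first class and 9.56% in the last, below the genome's 14.8% throughout.

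The signal of the 130 had a median of 59.02 and ranged over 53.7 to 122.3, with 72 below 60 and 5 at 80 or more. The other 2543 peaks of the first 3000 away from RNA genes had a median of 61.43, and the median rank was 1922.5 for the 130 and 1596 for those. The last 3 inside rank 3000 were in ddr-2 (signal 53.84), catp-5 (53.82) and attf-3 (53.74). The first 3 exonic summits outside it were in W06H8.6 (53.71), F58B6.1 (53.67) and K04C2.2 (53.66), so nothing in the signal separated the sides.

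The highest exonic peak was in the last exon of dos-3, which encodes a Delta and OSM-11-like protein, a family of co-ligands for Notch receptors (WBGene00019331; peak on chromosome III, 835735 to 836230). Its signal was 122.3 in the pooled list, rank 193 and q-value 0.00779, and it was 76.3 (rank 136) in replicate 1 and 48.1 (rank 533) in replicate 2. The second was in exon 26 of 32 of unc-73, the worm relative of Trio, a guanine nucleotide exchange factor that guides axons (WBGene00006805; chromosome I, 4001191 to 4001686). It had 102.7 in the pooled list, rank 274 and q-value 0.0201, with 58.2 (rank 245) in replicate 1 and 38.0 (rank 1574) in replicate 2. Both peaks were thus ranked higher in replicate 1 than in replicate 2. The third, in the FHA domain gene Y53G8AL.1, had a pooled signal of 84.7 and a q-value of 0.0578, and no other exonic peak had a lower q-value than these 3. It had 48.0 (rank 490) in replicate 1 and 36.9 (rank 1829) in replicate 2, where the summit lay 394 bp from the pooled one.

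The next coding peak among the 20 highest was in ani-3, an anillin-like protein (anillins organise contractile actin). It had 77.95 in the pooled list, 35.3 (rank 2368) in replicate 1 and 39.6 (rank 1289) in replicate 2. In ubr-1, an E3 ubiquitin ligase, the pooled signal was 73.7, and replicate 1 had 46.6 (rank 570) but replicate 2 only 20.7 (rank 15746). The peak in lin-42, the worm relative of Period and a regulator of developmental timing, had a pooled signal of 69.97. It had 31.3 (rank 4269) in replicate 1 and 32.6 (rank 3208) in replicate 2. The receptor guanylate cyclase gcy-17 had 71.3, the serine-rich protein gene Y48C3A.5 69.7, the enhancer of polycomb relative epc-1 69.1 and the WD repeat gene wdfy-3 68.2 in the pooled list. The ranks in the 2 replicates thus lay closer together for ani-3 and lin-42 than for ubr-1.

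In 3′ UTRs, the highest peak was in zig-11, which encodes an immunoglobulin-domain protein (pooled signal 82.4; chromosome V, 1875438 to 1875933). Replicate 1 had 53.4 (rank 316) there and replicate 2 had 42.8 (rank 870). The next was in pde-3, a cyclic nucleotide phosphodiesterase, with 81.2 pooled, 40.5 in replicate 1 and 39.1 in replicate 2. Both 3′ UTR peaks were therefore among the first 3000 of each replicate.
The zinc finger gene Y53G8AR.9 (77.1) and the uncharacterized W05B5.1 (76.5) completed the 4 highest 3′ UTR peaks. The actin gene act-4 had 74.6 pooled, with 38.5 in replicate 1 and 38.7 in replicate 2, although the replicate 2 summit lay 253 bp away. In T28F4.1, a SERTA domain gene, the pooled value was 76.4, and the replicates stood far apart with 58.0 (rank 248) in replicate 1 and 30.1 (rank 4488) in replicate 2. ttc-7 differed likewise (47.5 at rank 514 in replicate 1, 18.96 at rank 19307 in replicate 2), and so did F55F3.4 (44.6 at rank 684, 18.5 at rank 20298). The replicate 2 summits lay 283 bp (T28F4.1), 248 bp (ttc-7) and 191 bp (F55F3.4) from the pooled ones. Those replicate 2 values may therefore not belong to the exonic peaks. The remaining 3′ UTR peaks among the 20 highest were those of F19C6.2, which overlaps F19C6.3 (74.1), and of zfr-1, a DZF domain gene (70.3). No exonic peak of the first 3000 had its summit in a 5′ UTR.

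**Figure D2:**
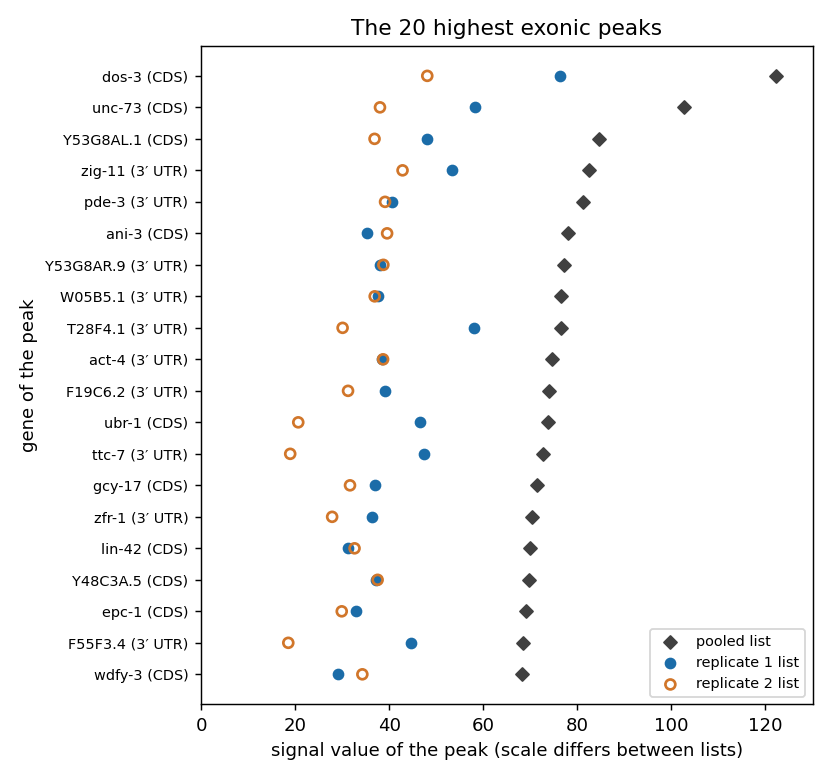
Deposited signal value (x axis, authors' units) of the 20 highest exonic peaks (y axis, by gene) in the pooled list (diamonds), replicate 1 (filled circles) and replicate 2 (open circles); scales differ between lists. dos-3 and unc-73 stand apart in the pooled list at 122.3 and 102.7. For ubr-1, ttc-7 and F55F3.4 the values are 46.6, 47.5 and 44.6 in replicate 1 and 20.7, 18.96 and 18.5 in replicate 2, each on its own list's scale.

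Because the pooled list was made from the same 2 replicates, each replicate's own list describes the exonic peaks rather than supporting them. A peak of at least 1 bp overlap was listed in both replicates for 109 of 130 (83.8%), against 88.1% of the other 2543 peaks of the first 3000 away from RNA genes, which are called the other high-ranked peaks below. It was 33.3% of the exonic peaks beyond rank 3000, called lower-ranked exonic peaks. For 17 of 130 (13.1%, interval 8.33 to 19.9%) that overlapping peak was among the first 3000 of each replicate, against 19.5% of the other high-ranked peaks. Beyond rank 1000 the shares were 6.2% of the exonic peaks and 6.4% (116 of 1813) of the others. A further 45 exonic peaks were among the first 3000 in replicate 1 only, 36 in replicate 2 only and 32 in neither.

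Both replicate summits lay within 100 bp of the pooled summit for 60 of 130 exonic peaks (46.2%), against 45.8% of the other high-ranked peaks. Only 7 exonic peaks met this and were also in the first 3000 of both replicates. Selecting in the same way from each replicate alone gave 167 exonic peaks in replicate 1, which overlapped 39.2% of the 130, and 203 in replicate 2, which overlapped 34.6%. Of each replicate's own set, 30.5% in replicate 1 and 24.6% in replicate 2 overlapped one of the 130.

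**Figure D3:**
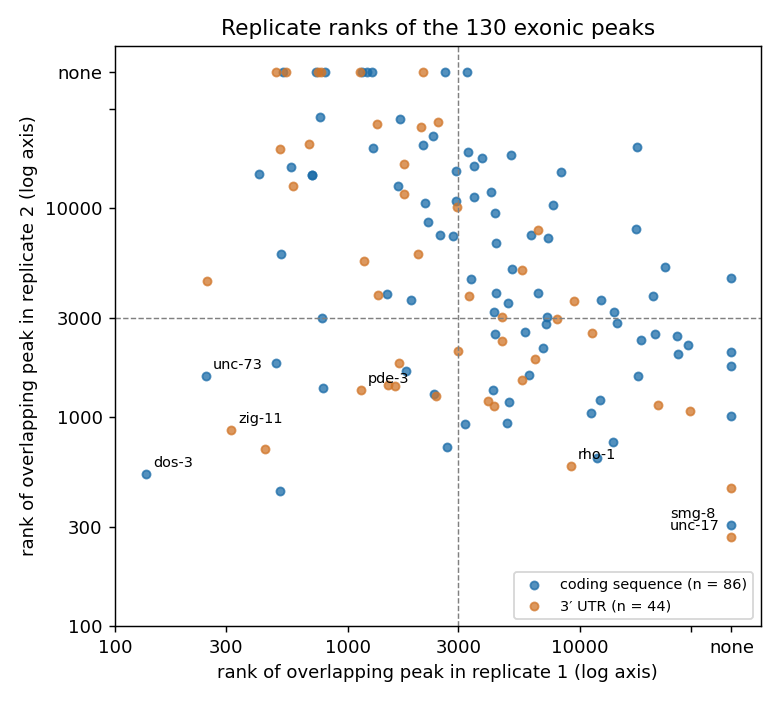
Rank of the overlapping peak in replicate 1 (x axis, log scale) and replicate 2 (y axis, log scale) for each of the 130 exonic peaks, coloured by coding sequence (86) or 3′ UTR (44), with "none" where no peak overlapped; dashed lines mark rank 3000. The lower left part, high in both replicates, holds 17 peaks, and 7 peaks have none in replicate 1 and 14 none in replicate 2.

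The replicate q-values differed between the lists. In replicate 1, a q-value of 0.05 or less was held by 1 of 130 exonic peaks (0.77%), that in dos-3. It was held by 0.753% of all replicate 1 peaks and at 5.35% of the other high-ranked peaks. In replicate 2 it was held by 9 (6.9%, interval 3.7 to 12.6%), beside 2.59% of all replicate 2 peaks and 18.8% of the other high-ranked peaks. The 9, named after their values were seen, were in dos-3, rho-1, smg-8, gei-4, trpl-5, B0464.6, rnp-8, strm-1 and unc-17. At gei-4, the replicate summits lay 175 bp (replicate 1) and 211 bp (replicate 2) from the pooled exonic summit, on the side of a higher pooled promoter peak (rank 373) that was 212 bp away, so these replicate values may not belong to the exonic peak. The 4 with the highest replicate 2 signal were unc-17, smg-8, rnp-8 and trpl-5. An RNA-binding protein gene, rnp-8, had 50.6 (rank 442) in replicate 2 and 47.5 (rank 510) in replicate 1, where the summit lay 356 bp from the pooled one. The other 3 had no peak in replicate 1: unc-17, the vesicular acetylcholine transporter of cholinergic neurons, at 58.5 (rank 266), smg-8, a factor of nonsense-mediated messenger RNA decay, at 55.8 (rank 306) and trpl-5, an ion channel gene, at 50.2 (rank 457). The pooled signals of these were 56.7 for unc-17, 63.5 for smg-8 and 61.7 for trpl-5, and the unc-17 peak lay in the 3′ UTR, 213 bp from the replicate 2 summit.

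Gene groups were taken from lists assembled with earlier results of these data known, and were counted against genes with any pooled exonic peak by the position rule, of which 127 of 2145 (5.92%) held one of the 130. Nuclear hormone receptors, ligand-regulated or orphan transcription factors, had 5 of 33 such genes (15.2%). They were nhr-41 (67.7), nhr-119 (60.5), nhr-88 (56.0), nhr-155 (54.6) and nhr-31 (54.1). The replicates had 35.2 and 39.7 for nhr-119 and 29.9 and 29.1 for nhr-31, while nhr-88 had 43.7 in replicate 1 and no overlapping peak in replicate 2. At nhr-31 the replicate 2 summit lay 238 bp from the pooled one, so that value may not belong to the exonic peak. The replicate 1 summit at nhr-119 lay 134 bp away.
Each of 7 other groups had 1 gene. Among muscle contractile and attachment genes it was act-4 (1 of 14), among cuticle collagens col-118 (1 of 14, signal 57.8), and among basement membrane and extracellular matrix genes him-4, a hemicentin (1 of 7, signal 55.04). Among heat shock chaperones it was hsp-1 (1 of 10, 64.05), among homeobox genes ceh-89 (1 of 11, 60.8), among neuropeptides nlp-40 (1 of 4, 54.1) and among repeat-rich proteins pqn-41 (1 of 3, 60.4). Ribosomal proteins, translation factors, spectrin and cytoskeleton, core transcription and chromatin, RNA processing, ubiquitin and proteasome, sperm and germline genes had none among the 1 to 8 genes that each of these short lists could count. The lists are not complete, and ubr-1 and ani-3, for example, were not on the lists for ubiquitin and for the cytoskeleton. The homeobox gene zag-1 (61.4) and the cuticle collagen domain gene F13D12.8 (66.8), named after their values were seen, were likewise among the 130 but not counted. Histones and vitellogenins had no exonic peak to count. By these incomplete lists, no group but the receptors held more than 1 gene. The receptors also had the most genes to count, 33 against 14 in the next largest groups. Counts from groups of such unlike size cannot be compared directly, and the difference was not tested.

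A pair of exonic peaks was found in each of 3 genes. In Y69H2.7, a DNA helicase gene, the peaks had 66.2 and 59.5, lay 214 bp apart in the same exon and overlapped the same replicate peaks, so they are not separate observations. In nhr-41 the values were 67.7 and 54.25, in neighbouring exons. The 54.25 peak had a higher intronic pooled peak (rank 1338) 208 bp away. Its replicate summits lay 206 bp (replicate 1) and 130 bp (replicate 2) from the pooled summit, so its replicate values may not belong to it. In W06H8.6, a basic helix-loop-helix gene, they were 57.5 and 57.2, both in its 3′ UTR. The 57.5 peak was ranked 29902 in replicate 1 and 1072 in replicate 2, and the 57.2 peak 2065 in replicate 1 and 24476 in replicate 2, so each rested on a different replicate. In all, 6 of the 130 had a higher pooled peak within 300 bp, as in ints-5, an Integrator subunit named after its values were seen, whose neighbour at 211 bp was intronic and ranked 574.

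Of the 130 summits, 86 were in coding sequence (66.2%, interval 57.7 to 73.7%) and 44 in a 3′ UTR (33.8%, 26.3 to 42.3%). Among the lower-ranked exonic peaks, 74.5% were in coding sequence, 24.8% in a 3′ UTR and 0.65% in a 5′ UTR. Of the genome bases that met the position rule, 86.3% were coding. The 130 sat further toward transcript ends. The median summit lay 87.6% of the way along its transcript (interval of the median 81.6 to 91.2%), against 77.2% (75.5 to 79.2%) for lower-ranked exonic peaks. In the last 10% of the transcript were 57 of 130 (43.8%, 35.6 to 52.4%) against 31.9% (30.1 to 33.7%). The last exon held 67 (51.5%) against 39.2%, and a transcript end lay within 250 bp of 52 (40.0%) against 28.3%. These positions are relative to peaks that obeyed the same distance rule, which itself leaves out the first 1000 bp after a start.

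**Figure D4:**
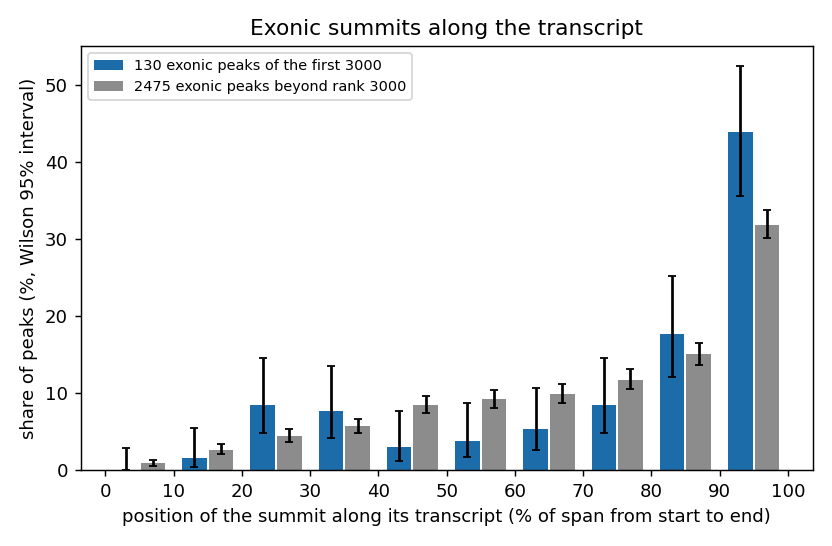
Position of the summit along its transcript (x axis, percent of the span from start to end, in steps of 10) as a share of peaks (y axis, percent, bars from 0 with Wilson 95% intervals), for the 130 exonic peaks of the first 3000 (blue) and exonic peaks beyond rank 3000 (grey). The last step holds 43.8% of the peaks in blue and 31.9% of those in grey.

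The transcripts with high-ranked exonic peaks also covered longer stretches of genome, introns included. Their median span was 6273 bp (interval 5343 to 7597) against 4698 bp (4511 to 4880) for the lower-ranked. The summit's exon had a median length of 367 bp against 311 bp, and both sets had a median of 8 exons. Within the coding sequence, the median distance to the nearest transcript end was 1320.5 bp against 1288 bp, and in 3′ UTRs 106.5 bp against 116.5 bp. A chromosome end lay within 4 Mb of 85 of the 130 (65.4%, 56.9 to 73.02%), against 52.2% of lower-ranked exonic peaks and 58.3% of the other high-ranked peaks. Among those, it was 67.7% of intronic peaks far from starts, 61.8% of distal intergenic peaks and 52.7% of promoter peaks. By chromosome there were 28 on I, 23 on II, 21 on III, 20 on IV, 22 on V and 16 on X. The host gene was on the plus strand for 65.

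Base composition within 100 bp of the summit, which the rule did not use, differed little between classes and more between replicates. The median G and C content was 38.3% (37.3 to 39.3%) for the 130, 37.8% for lower-ranked exonic peaks, 37.3% for the other high-ranked peaks and 35.3% for all other pooled peaks. Coding summits had 40.0% and 3′ UTR summits 35.1%. Selecting from each replicate alone gave 35.8% (34.8 to 37.3%) in replicate 1 and 42.3% (40.3 to 42.8%) in replicate 2. The same gap stood in peaks that were not exonic, with 34.3% in replicate 1 and 39.3% in replicate 2, and in coding summits alone, with 37.8% and 43.3%. The part of base composition in which exonic peaks each replicate listed was not tested.

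**Figure D5:**
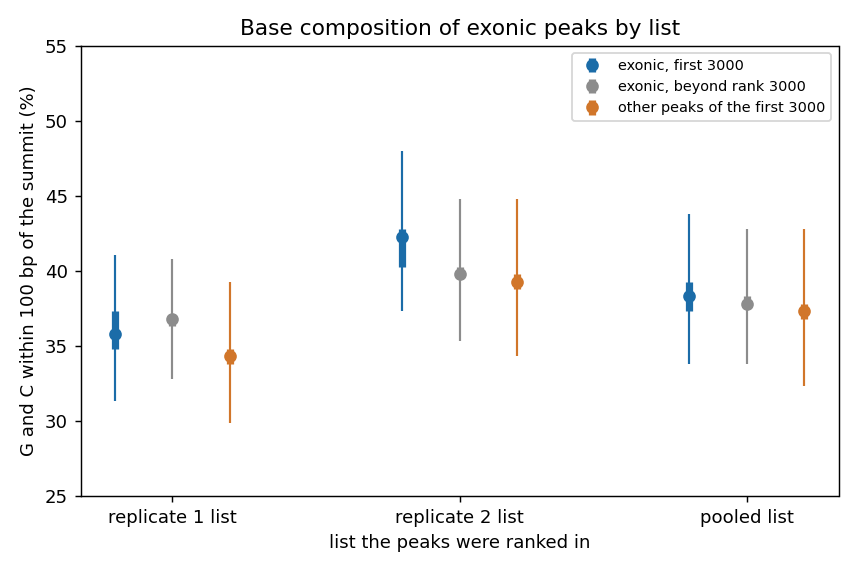
G and C content within 100 bp of the summit (y axis, percent, starting above 0) for exonic peaks of the first 3000 (blue), exonic peaks beyond rank 3000 (grey) and other peaks of the first 3000 (orange), ranked in the replicate 1, replicate 2 or pooled list; points are medians, thick bars the interval of the median and thin lines the middle 50% of peaks. In replicate 2 all 3 classes sit above their counterparts in replicate 1, with medians of 42.3% and 35.8% for the blue class.

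Repeated sequence was rare at exonic peaks. For 129 of 130 (99.2%), every 36-base word in the window occurred once in the genome, against 96.1% of lower-ranked exonic peaks and 84.1% of the other high-ranked peaks. The exception, named after its values were seen, was mpz-6, a PDZ domain gene (signal 58.2), where 4.22% of the words occurred at a second place. Another annotated RNA gene or pseudogene, outside the types that the rule removed, lay within 250 bp of 6 summits (4.6%, against 4.7% of lower-ranked exonic peaks). One, named after its values were seen, was the antisense RNA gene anr-30 at pals-37.

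Short sequence motifs were searched on both strands of the same windows. AAGTG, the core of the NK-2 site, was in 56 of 130 (43.1%, 34.9 to 51.7%), in 37.1% of lower-ranked exonic peaks, in 35.1% of the other high-ranked peaks and in 36.01% of all other pooled peaks. The longer TNAAGTG, which contains AAGTG, was in 10 (7.7%, 4.2 to 13.6%), in 9.3% of lower-ranked exonic peaks and in 9.1% of all other pooled peaks. The share over all other pooled peaks lay inside the interval of the 130 for both motifs.
CGCACA was in 2 of 130 (1.5%, 0.42 to 5.44%), in 2.9% of lower-ranked exonic peaks, in 10.5% of high-ranked promoter peaks and in 5.2% of all other pooled peaks. GCGCGC was in 2 (1.5%), in 0.85% of lower-ranked exonic peaks, in 7.9% of high-ranked promoter peaks and in 2.4% of all other pooled peaks. For both motifs the share over all other pooled peaks lay inside the interval of the 130. GTTCGANNC, the B box of transfer RNA genes, was in 2 (1.5%) and in 2.1% of all other pooled peaks. TTTCAG, the end of worm introns in its usual form, was in 63 (48.5%, 40.0 to 57.0%) and in 39.0% of lower-ranked exonic peaks. It was in 32.6% of the other high-ranked peaks and in 35.0% of all other pooled peaks. AATAAA, a poly(A) signal, was in 42.3% (34.2 to 50.9%), 36.4%, 38.9% and 40.3% of the same classes. The share over all other pooled peaks lay below the interval of the 130 for TTTCAG and inside it for AATAAA. A match is only a match of letters within these windows.

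The loci of the transgene were not among the 130. The ceh-24 gene (chromosome V, 13813231 to 13815350) held 1 pooled peak, in its coding sequence, with a signal of 48.0 and rank 4868. The unc-119 gene, mutated in the strain, held 3 pooled peaks, of which 1 was exonic by its summit, and the highest had 33.8 at rank 16105.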

How the data were processed

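The analysis used the ce11 peak lists of 2 replicates, the pooled list and the optimal list. The signal value of each peak was deposited by the authors, and so was the −log10 q-value. Per the file headers, the lists are input for IDR or passed its threshold. The aligner and peak caller were unnamed, i.e. not given in the sources used here.

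Summits were placed in Ensembl release 115 annotation (31865 protein-coding transcripts) and the RefSeq genome, build WBcel235, with Python 3.11.15, numpy 2.4.6, pandas 2.3.3, scipy 1.17.1 and matplotlib 3.10.9. A summit in coding sequence of any transcript counted as coding. Where several replicate peaks overlapped a pooled peak, the highest ranked was used. Shares have Wilson 95% intervals and medians order-statistic intervals, which cover counting error only. No hypothesis test was made, because 1 group and 2 replicates allow none. The search for motifs and positions was tested on simulated data. Unused columns of samples numbered 0.

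The regions, lists and named genes were chosen with earlier results of these data known. Named were the genes of the 20 highest peaks, genes with 2 or more, the 4 highest 3′ UTR peaks, those in the optimal list, 3 on each side of rank 3000, up to 4 per gene list, ceh-24 and unc-119. Genes outside this rule are marked as such.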

Additional observations from a re-analysis of the deposited data

How the results depend on the processing

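The number of exonic peaks was 130, and it was 18 for the first 1000 ranks, 282 for the first 5000, 78 with starts within 2000 bp left out, and 167 to 203 with 1 replicate left out. The share in coding sequence was 50% for the first 1000 ranks and 63.5 to 77.3% with 1 replicate left out. The median G and C content was 35.8 to 42.3% with 1 replicate left out, 40.6% within 50 bp of the summit and 37.0% within 200 bp. AAGTG was within 50 bp in 18.5% and within 200 bp in 61.5%. Windows of 36-base words found once were 100% for the first 1000 ranks and with starts within 2000 bp left out, and 93.1% at 200 bp. Peaks among the first 3000 of both replicates numbered 7 when both summits had to lie within 100 bp, an alternative chosen after seeing the data, and those in the optimal list were 1 at a q-value of 0.01. The causes were not tested, although wider windows hold more words by construction. No paired analysis was possible because there was 1 group and no test. Read depth is unknown, so differences in depth between replicates cannot be told apart from other differences.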
